A study of Mus musculus with 6 samples.

Results

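The genes described here are 38 genes of the actin-myosin cytoskeleton and of the transcription pathways that read its state, namely 24 contractile genes, 4 target genes of the coactivator YAP and 10 transcriptional regulators. They were listed by name from general knowledge of the SRF and YAP pathways, at a time when results of these data were already known. All 38 were found among the 56884 gene IDs of each library. RNA was sequenced from an immortalized mouse stromal vascular fraction (SVF) cell line of subcutaneous white adipose tissue at day 2 of beige adipocyte differentiation. Cells stably overexpressed, from a retroviral vector under puromycin selection, HA-tagged PPARγ2 with lysine 382 changed to glutamine (K382Q, which mimics acetylation) or to arginine (K382R, which mimics deacetylation), with 3 biological replicates of each. Both groups received the same induction medium, which held insulin, dexamethasone, isobutylmethylxanthine, indomethacin, triiodothyronine and rosiglitazone, a PPARγ agonist. Cells with wild-type PPARγ2 or an empty vector were not analysed here, so each value sets one mutant against the other, and which mutant departs from the parental line cannot be told apart. All the cells came from a single cell line, and whether the replicates were separate transductions is not given in the sources used here, so the p-values cover only the spread between these libraries.

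Contractile force in a cell comes from actin filaments pulled by non-muscle or smooth muscle myosin, and filaments are bundled, capped and anchored by tropomyosins, calponins, α-actinins, filamin and vinculin. Unpolymerized actin holds the coactivators MRTF-A (*Mrtfa*) and MRTF-B (*Mrtfb*) in the cytoplasm. When actin polymerizes they enter the nucleus and drive SRF (serum response factor) at DNA elements called CArG boxes, which lie before many genes of the cytoskeleton. YAP (*Yap1*) and TAZ (*Wwtr1*) are coactivators that are held back by the Hippo kinases, enter the nucleus in spread cells under tension, and bind DNA through the TEAD factors at elements called MCAT. Fibroblast-like progenitors of fat carry stress fibres, and their loss accompanies the rounding of a differentiating adipocyte, whereas a myofibroblast is a fibroblast that has taken on smooth muscle α-actin (*Acta2*) and contracts.

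Levels are given as TPM (the share of a gene among all transcripts after scaling for transcript length). Fold changes are differences of log2(TPM + 0.5), K382Q minus K382R, with their standard error (SE) and an adjusted p from limma, and negative values mean lower in K382Q. A gene was tested where 3 or more of the 6 libraries reached 0.5 TPM, which held for 15426 genes, and it was called at an adjusted p under 0.05. A call with a fold change over 2 is termed a differentially expressed gene (DEG). The libraries held an estimated 5.95 to 8.15 Gb of aligned sequence, with overlapping ranges in both groups, and the first principal component, with 61.4% of the variance, separated the groups. *Pparg*, from the vector and the endogenous gene together, was at 1104 to 1333 TPM in K382Q and at 1590 to 1632 TPM in K382R (log2 fold change -0.43, SE 0.06, adjusted p 0.000977 by limma). Mitochondrially encoded transcripts made up 4.09% to 4.96% of the TPM in K382Q and 2.66% to 2.80% in K382R, and the median log2 fold change of all genes tested was -0.14. Of all genes tested, 36.9% were called lower in K382Q and 11.1% higher. Without mitochondrially encoded genes the median was -0.11, and 5187 genes were called lower and 1831 higher. With libraries rescaled by median-ratio size factors, the median of all genes was 0.00 and the shares were 20.4% lower and 19.9% higher. Values under that scaling are therefore given beside each group of members.

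Most members were lower in K382Q. Of the 38, 33 passed the filter on low values, and 31 of these were called lower and 2 were called higher (*Mylk* and *Tead4*). The shares over all genes tested were 36.9% lower and 11.1% higher. The 3 libraries of K382Q did not overlap with the 3 of K382R for any of the 33, whereas over all genes tested 42.8% were lower and 14.1% higher without overlap. DEGs made up 8 lower members (*Acta2*, *Tagln*, *Cnn2*, *Myl9*, *Actn1*, *Ccn1*, *Ccn2* and *Ankrd1*) and 1 higher member (*Tead4*), against a background of 2.61% lower and 1.27% higher. The 5 members below the filter were *Actg2*, *Cnn1*, *Myh11*, *Lmod1* and *Myocd*, and *Myl9* passed it through the K382R libraries alone, so that it had to differ. Without *Myl9*, 30 of 32 members were called lower, 7 of them as DEGs. Under median-ratio scaling 24 members were called lower and 2 higher, beside 20.4% and 19.9% of all genes tested. The summed TPM of the 38 genes was 4837 to 4868 in K382Q and 6711 to 6908 in K382R.

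**Figure D1:**
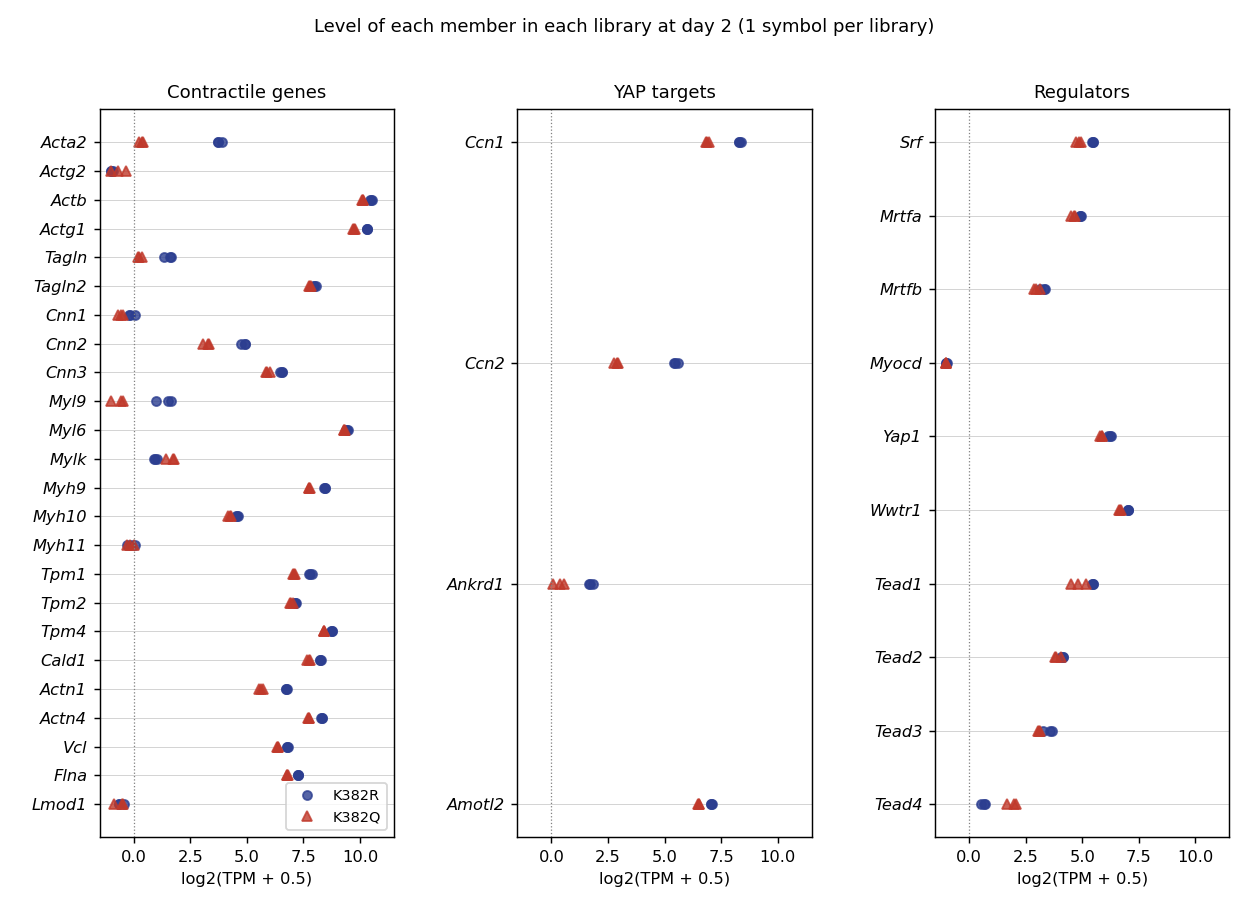
Level of each of the 38 members, as log2(TPM + 0.5), in each of the 3 K382Q libraries (triangles) and 3 K382R libraries (circles), in panels for contractile genes, YAP targets and regulators. The triangles lie left of the circles for most genes, with the widest gaps at *Acta2*, *Ccn2*, *Myl9* and *Cnn2*, and right of them for *Mylk* and *Tead4*. The dotted line marks a value of 0, and a TPM of 0 lies at -1.

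Several genes that define a mature smooth muscle or fully contractile state were near the lower limit of the data in both groups. Smooth muscle γ-actin (*Actg2*) reached at most 0.284 TPM in a library, calponin 1 (*Cnn1*) at most 0.532 TPM, smooth muscle myosin heavy chain (*Myh11*) at most 0.541 TPM, leiomodin 1 (*Lmod1*) at most 0.239 TPM, and myocardin (*Myocd*), the smooth muscle coactivator of SRF, was listed at 0 in 5 of the 6 libraries. *Acta2* itself did not exceed 14.4 TPM where *Actb* exceeded 1000 TPM. *Acta2*, the defining marker of a myofibroblast, was thus present at a low level, mostly in K382R. *Actg2*, *Cnn1*, *Myh11*, *Lmod1* and *Myocd* were near the lower limit, but not every gene of smooth muscle was. *Tpm2* was at 121 to 143 TPM over the libraries, and *Smtn*, which is no member, had means of 31.9 TPM in K382Q and 19.9 TPM in K382R. The members are called here contractile genes, YAP targets and regulators. Of a list of 10 other smooth muscle and pericyte markers, 5 passed the filter, with 1 called lower (*Mcam*) and 1 higher (*Des*), and *Rgs5*, *Kcnj8*, *Abcc9*, *Higd1b* and *Pln* were near 0. The summed level of that list was 19.3 to 21.2 TPM in K382Q and 26.1 to 30.1 TPM in K382R, a difference in the main of *Mcam* (means of 7.45 and 16.8 TPM), while *Des* (5.00 and 3.20 TPM) and *Cspg4* (2.62 and 1.74 TPM) had higher means in K382Q and the median log2 fold change of the 5 was -0.09.

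Fibroblast and progenitor markers moved in the same direction as the members. All 7 of 10 that passed the filter were called lower (*Pdgfra*, *Pdgfrb*, *Col1a1*, *Col3a1*, *Dcn*, *Thy1* and *Ly6a*), *Pi16* was below the filter and *Lum* and *Dpp4* were at 0 in every library. Their summed level was 571 to 616 TPM in K382Q and 944 to 982 TPM in K382R. This sum was mostly *Ly6a* (means of 467 TPM in K382Q and 767 TPM in K382R). The median log2 fold change of the 7 was -0.88. Of 9 adipocyte markers 3 were called higher (*Fabp4*, *Cidec* and *Slc2a4*) and 3 lower (*Adipoq*, *Lpl* and *Cebpa*). *Adipoq* had the largest change, with means of 148 TPM in K382Q and 360 TPM in K382R. Its log2 fold change was -1.28, and that of *Slc2a4* was 1.18. The sum of the 9, mostly *Fabp4*, was 51650 to 55560 TPM in K382Q and 42920 to 44170 TPM in K382R. Under median-ratio scaling 5 of the 9 were higher and 2 lower. The part of these markers, of the mitochondrial share and of the *Pparg* level in the results for the members was not tested. In RNA from whole cultures, fewer cells of a type and less RNA per cell cannot be told apart.

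Promoter sequences were read because the regulators act through short DNA elements. RefSeq promoter windows (GRCm38.p6 table, 250 bases before to 50 bases after each start) were found for 30 of the 38 members, and each window matched a single place in GRCm39, the build of the deposited tables. No window was found for *Tagln*, *Ccn2*, *Actb*, *Actg2*, *Myh11*, *Myocd*, *Tead1* and *Tead4*. The CArG box was searched in its strict form on both strands, and MCAT as CATTCC on either strand. The pair of elements did not overlap in any member window. A CArG box lay in a window of 6 of the 30 members (*Actg1*, *Cnn2*, *Myl9*, *Myl6*, *Vcl* and *Srf*), and 1.81% of 27025 genes with windows held one. MCAT was found for 17 of the 30 members, and for 16.6% of all genes. A match describes the letters only, and a window without a match says only that these letters are not in it. Boxes that depart from the strict form by a letter were not counted. The *Acta2* window below holds such near matches, ccctatatgg and ccttgtttgg, so its absence from the CArG list covers the strict form only. The windows below are those of 5 DEGs with a match and of *Srf*, which binds CArG boxes itself. They are written 5′ to 3′ on the strand of the gene, with the matches in capitals.
*Acta2*, smooth muscle α-actin, minus strand of chr19:34232724-34233023, MCAT 146 bases before the start:
Acta2: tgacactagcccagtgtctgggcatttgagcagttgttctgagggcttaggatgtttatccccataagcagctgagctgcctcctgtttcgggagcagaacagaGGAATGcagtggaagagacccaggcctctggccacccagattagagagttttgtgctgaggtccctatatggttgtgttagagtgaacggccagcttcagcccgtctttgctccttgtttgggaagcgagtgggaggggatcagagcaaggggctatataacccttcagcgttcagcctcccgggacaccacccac
*Myl9*, myosin regulatory light chain, plus strand of chr2:156617134-156617433, CArG box 161 bases before the start:
Myl9: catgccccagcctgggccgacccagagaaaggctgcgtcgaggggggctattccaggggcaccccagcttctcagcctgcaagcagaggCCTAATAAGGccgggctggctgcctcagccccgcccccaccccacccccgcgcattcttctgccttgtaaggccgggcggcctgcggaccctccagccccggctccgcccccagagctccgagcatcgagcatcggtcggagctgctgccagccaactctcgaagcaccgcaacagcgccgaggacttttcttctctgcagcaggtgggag
*Cnn2*, calponin 2, plus strand of chr10:79824184-79824483, CArG box 56 bases before the start:
Cnn2: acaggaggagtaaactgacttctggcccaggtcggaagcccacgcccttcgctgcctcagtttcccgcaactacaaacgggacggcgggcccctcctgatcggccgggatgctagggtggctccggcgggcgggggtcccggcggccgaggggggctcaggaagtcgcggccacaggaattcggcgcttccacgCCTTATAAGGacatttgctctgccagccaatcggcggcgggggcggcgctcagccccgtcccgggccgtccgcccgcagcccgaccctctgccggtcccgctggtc
*Ccn1*, a secreted matrix protein and YAP target, minus strand of chr3:145355691-145355990, MCAT 103 bases before the start:
Ccn1: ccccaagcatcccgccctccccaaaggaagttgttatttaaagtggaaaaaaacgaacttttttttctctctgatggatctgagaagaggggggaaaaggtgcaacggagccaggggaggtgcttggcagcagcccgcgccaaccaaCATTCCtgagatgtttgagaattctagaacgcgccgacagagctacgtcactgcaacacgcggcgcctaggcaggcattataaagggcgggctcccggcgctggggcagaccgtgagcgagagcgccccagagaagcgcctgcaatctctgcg
*Ankrd1*, an ankyrin repeat protein and YAP target, minus strand of chr19:36097195-36097494, MCAT 210 and 123 bases before the start:
Ankrd1: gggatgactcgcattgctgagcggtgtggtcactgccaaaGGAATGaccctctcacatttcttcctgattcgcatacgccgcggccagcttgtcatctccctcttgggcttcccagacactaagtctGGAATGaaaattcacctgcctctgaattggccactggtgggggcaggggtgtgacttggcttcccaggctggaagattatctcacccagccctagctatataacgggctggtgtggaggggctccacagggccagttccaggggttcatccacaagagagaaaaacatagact
*Srf*, minus strand of chr17:46867039-46867338, CArG boxes 82 and 62 bases before the start:
Srf: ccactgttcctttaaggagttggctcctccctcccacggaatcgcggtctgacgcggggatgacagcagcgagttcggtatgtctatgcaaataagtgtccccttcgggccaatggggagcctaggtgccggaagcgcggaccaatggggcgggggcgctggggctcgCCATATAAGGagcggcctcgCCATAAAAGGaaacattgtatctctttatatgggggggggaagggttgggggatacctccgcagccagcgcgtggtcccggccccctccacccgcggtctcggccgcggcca

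The 3 member actins that could be tested were called lower in K382Q, *Acta2* by far more than *Actb* and *Actg1*. *Acta2* (ENSMUSG00000035783.10, chromosome 19, 34218490 to 34232990), the actin of smooth muscle and myofibroblasts, was at 0.675, 0.838 and 0.778 TPM in K382Q replicates 1 to 3 and at 12.8, 12.6 and 14.4 TPM in K382R. Every K382R library thus stood far above every K382Q library. The ratio of the means was 17.35 and the log2 fold change was -3.44 (SE 0.11, adjusted p 6.51e-07 by limma), and it was -3.32 under median-ratio scaling. At this low level in K382Q its size depended on the unit and the pseudocount, and it ranged from -2.79 with FPKM to -3.95 with a pseudocount of 0.1. The mean read depth per base of the gene was 1.54 to 2.39 in K382Q and 33.6 to 37.1 in K382R. Its exons share 301 bases with *Stambpl1* on the other strand, a gene at 46.9 TPM in K382Q and 75.7 TPM in K382R (means), and since the library kit did not mark strand, reads from those bases cannot be told apart.

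The cytoplasmic actins carried nearly the whole actin pool. β-Actin (*Actb*) was at 1106, 1106 and 1098 TPM in K382Q and at 1414, 1399 and 1497 TPM in K382R. γ-Actin (*Actg1*) was at 874, 845 and 832 TPM in K382Q and at 1253, 1285 and 1267 TPM in K382R. Both were lower in every K382Q library, with log2 fold changes of -0.38 (SE 0.03, adjusted p 6.22e-05 by limma) and -0.58 (SE 0.03, adjusted p 4.72e-06), and both kept their direction under every scaling tried. *Actg2*, the γ-actin of smooth muscle, was at 0, 0.123 and 0.284 TPM in K382Q and at 0, 0.0278 and 0 TPM in K382R, which was too low to test. The order of the 4 was *Actb*, *Actg1*, *Acta2* and *Actg2* in each group. *Acta2* made up 0.0341% to 0.0429% of the summed TPM of the 6 mouse actins in K382Q and 0.465% to 0.518% in K382R. Skeletal muscle α-actin (*Acta1*), which is no member, was at 2.56 ± 0.384 TPM in K382Q and 5.37 ± 0.669 TPM in K382R (mean ± SD, n = 3 each) and was also called lower (log2 fold change -0.94, adjusted p 0.000836 by limma). Actin coding sequences are similar in part, and how reads that fit several actins were divided is not given in the sources used here. Levels of *Acta2* below 1 TPM beside *Actb* above 1000 TPM are therefore uncertain.

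Transgelins and calponins bind along actin filaments, and in both families the tested gene with the lower level had the larger fold change. Transgelin (*Tagln*, ENSMUSG00000032085.6, chromosome 9, 45840917 to 45847356), also called SM22α, was at 0.799, 0.654 and 0.661 TPM in K382Q and at 2.00, 2.50 and 2.65 TPM in K382R. Its log2 fold change was -1.26 (SE 0.15, adjusted p 0.000364 by limma), and every K382Q library was below every K382R library. *Tagln* shares 1241 exon bases with the antisense gene *Gm48529*, which was itself at 2.06 TPM in K382Q and 2.10 TPM in K382R. Since the library kit did not mark strand, reads from those bases cannot be told apart, and the level of *Tagln* is uncertain. Its widely expressed paralog *Tagln2* was at 211 to 228 TPM in K382Q and 252 to 263 TPM in K382R, a log2 fold change of -0.22 (SE 0.04, adjusted p 0.00163 by limma). This call was lost under median-ratio scaling (adjusted p 0.223, where alternatives ranged from 0.00149 to 0.223).

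Calponins stabilize actin bundles. Calponin 2 (*Cnn2*, ENSMUSG00000004665.11, chromosome 10, 79824418 to 79831896), the form of non-muscle cells, was at 7.75, 9.21 and 9.66 TPM in K382Q and at 26.4, 29.8 and 29.5 TPM in K382R. The K382R libraries thus stood over 2-fold above the highest K382Q library, and the log2 fold change was -1.64 (SE 0.09, adjusted p 7.00e-06 by limma). Calponin 3 (*Cnn3*) was at 56.9 to 63.9 TPM in K382Q and 88.3 to 94.2 TPM in K382R, a log2 fold change of -0.62 (SE 0.05, adjusted p 5.16e-05). Calponin 1 (*Cnn1*), the smooth muscle form, was at 0.181, 0.220 and 0.124 TPM in K382Q and at 0.359, 0.532 and 0.398 TPM in K382R. It was below the filter and was not tested, though its libraries did not overlap. Its exons share 961 bases with *Elof1*, a gene at 153 TPM in K382Q and 147 TPM in K382R.

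Among the myosin genes, the regulatory light chain of smooth muscle was above 0.5 TPM in K382R alone, and the kinase that phosphorylates it was higher in K382Q. *Myl9* (ENSMUSG00000067818.7, chromosome 2, 156617340 to 156623578) was at 0.185, 0 and 0.216 TPM in K382Q and at 2.33, 1.49 and 2.66 TPM in K382R. Every K382R library was above every K382Q library, 1 of which was listed at 0. Since the filter admitted *Myl9* through the group where it was high, its log2 fold change of -2.06 (SE 0.24) is given as a description, without its p. With so low a level its size depended on the pseudocount, reaching -3.40 with a pseudocount of 0.1 and -1.26 with FPKM in place of TPM. The read depth per base was at most 0.513 in K382Q and 4.33 to 6.50 in K382R. Myosin light chain kinase (*Mylk*) was at 2.96, 2.79 and 2.17 TPM in K382Q and at 1.57, 1.42 and 1.38 TPM in K382R. It was the sole contractile gene called higher (log2 fold change 0.67, SE 0.14, adjusted p 0.00589 by limma), also under median-ratio scaling (0.80), at a read depth per base below 1 in all 6 libraries.

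Non-muscle myosin heavy chains, the motors of stress fibres, were lower too. *Myh9* was at 212, 214 and 218 TPM in K382Q and at 343, 351 and 346 TPM in K382R, which gave a log2 fold change of -0.69 (SE 0.03, adjusted p 1.58e-06 by limma). *Myh10*, its less abundant paralog, was at 17.5 to 19.0 TPM in K382Q and 22.6 to 23.5 TPM in K382R (log2 fold change -0.33, SE 0.05, adjusted p 0.00115). *Myh11*, the smooth muscle heavy chain, overlapped between groups at 0.302 to 0.521 TPM in K382Q and 0.302 to 0.541 TPM in K382R, and was too low to test. The essential light chain *Myl6* was at 618 to 639 TPM in K382Q and 674 to 709 TPM in K382R (log2 fold change -0.14, SE 0.03, adjusted p 0.0071). *Myl6* was the one member to change sign with the scaling, to 0.02 under median-ratio scaling (adjusted p 0.694, where alternatives ranged from 0.00116 to 0.694).

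Tropomyosins lie in the groove of the actin filament and set which proteins can bind it. *Tpm1* was at 132 to 138 TPM in K382Q and 213 to 233 TPM in K382R, a log2 fold change of -0.73 (SE 0.04, adjusted p 6.35e-06 by limma). *Tpm4* was at 335 to 336 TPM in K382Q and 423 to 439 TPM in K382R (log2 fold change -0.36, SE 0.03, adjusted p 2.68e-05). *Tpm2* was at 121 to 130 TPM in K382Q and 139 to 143 TPM in K382R (log2 fold change -0.17, SE 0.04, adjusted p 0.00593). The 3 tropomyosins were called lower to different degrees, and the call of *Tpm2* was lost under median-ratio scaling (adjusted p 0.774, where alternatives ranged from 0.00322 to 0.774). Caldesmon (*Cald1*), which binds actin, myosin and tropomyosin, had a log2 fold change of -0.51 (SE 0.04, adjusted p 2.01e-05), from 204 to 218 TPM in K382Q and from 298 to 312 TPM in K382R. Leiomodin 1 (*Lmod1*), which starts new actin filaments in smooth muscle, was at 0.0483 to 0.210 TPM in K382Q and 0.133 to 0.239 TPM in K382R, and was too low to test.

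Crosslinkers and anchors of filaments were lower as a group, α-actinin 1 the most. *Actn1* (ENSMUSG00000015143.16, chromosome 12, 80214321 to 80307145), which bundles filaments in stress fibres, was at 51.3, 45.7 and 49.2 TPM in K382Q and at 105, 109 and 107 TPM in K382R. The groups lay far apart, with a log2 fold change of -1.13 (SE 0.05, adjusted p 2.09e-06 by limma), which became -0.98, just under 2-fold, with median-ratio scaling. Its paralog *Actn4* was at 208 to 216 TPM in K382Q and 311 to 315 TPM in K382R (log2 fold change -0.56, SE 0.03, adjusted p 4.14e-06). Vinculin (*Vcl*), which ties filaments to focal adhesions, had a log2 fold change of -0.43 (SE 0.03, adjusted p 3.35e-05), and filamin A (*Flna*), which links filaments into networks, one of -0.47 (SE 0.03, adjusted p 1.12e-05). *Vcl* was at 80.3 to 83.6 TPM in K382Q and 109 to 113 TPM in K382R, and *Flna* at 108 to 111 TPM in K382Q and 150 to 154 TPM in K382R.

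Of the 24 contractile genes, 20 were tested, 19 of these were called lower and 1 higher, and 5 were DEGs. Without *Myl9*, 18 of 19 were lower, 4 as DEGs, with a median log2 fold change of -0.51. The median of the 20 was -0.54, beside -0.14 over all genes tested, of which 36.9% were called lower and 11.1% higher. Under median-ratio scaling 16 of the 20 were lower and 1 was higher, with a median of -0.38 beside 0.00. The shares of all genes under that scaling were 20.4% lower and 19.9% higher.

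**Figure D2:**
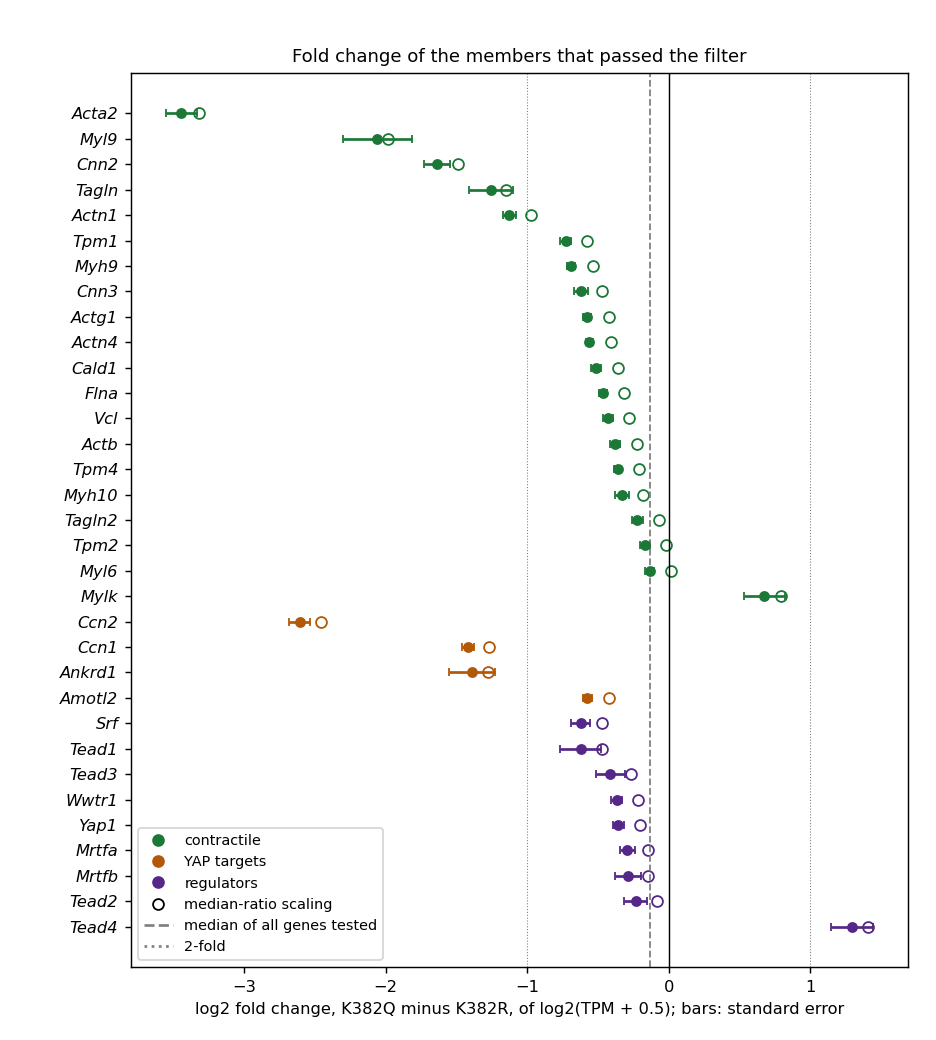
Log2 fold change (K382Q minus K382R, of log2(TPM + 0.5)) of the 33 members that passed the filter, with bars for the SE from limma, coloured by class and ordered within it. Open circles give the same value under median-ratio scaling, the dashed line is the median of all genes tested (-0.14) and dotted lines mark 2-fold. *Acta2* at -3.44 and *Ccn2* at -2.61 lie farthest to the left, and *Tead4* at 1.29 farthest to the right.

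Smooth muscle members of several families were set against a widely expressed paralog within each library, since such a ratio does not change with the scaling of the library. *Acta2* per 1000 TPM of *Actb* was 0.611, 0.758 and 0.708 in K382Q and 9.03, 8.98 and 9.63 in K382R. *Tagln* per 1000 TPM of *Tagln2* was 3.78, 2.97 and 2.90 in K382Q and 7.93, 9.53 and 10.5 in K382R. In both pairs the K382Q libraries were below all K382R libraries. The ratio of *Tagln* carries the limit of its antisense overlap given above. *Cnn1* per 1000 TPM of *Cnn3* was likewise lower without overlap, at 2.18 to 3.80 in K382Q and 4.07 to 5.73 in K382R, from levels of *Cnn1* below the filter. *Myh11* per 1000 TPM of *Myh9* overlapped, at 1.43 to 2.43 in K382Q and 0.882 to 1.56 in K382R. *Tpm2* per 1000 TPM of *Tpm4* went the other way, at 358 to 389 in K382Q and 318 to 337 in K382R. With 3 libraries against 3 the smallest two-sided p of an exact permutation test is 0.1, so no p is given for these ratios.

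**Figure D3:**
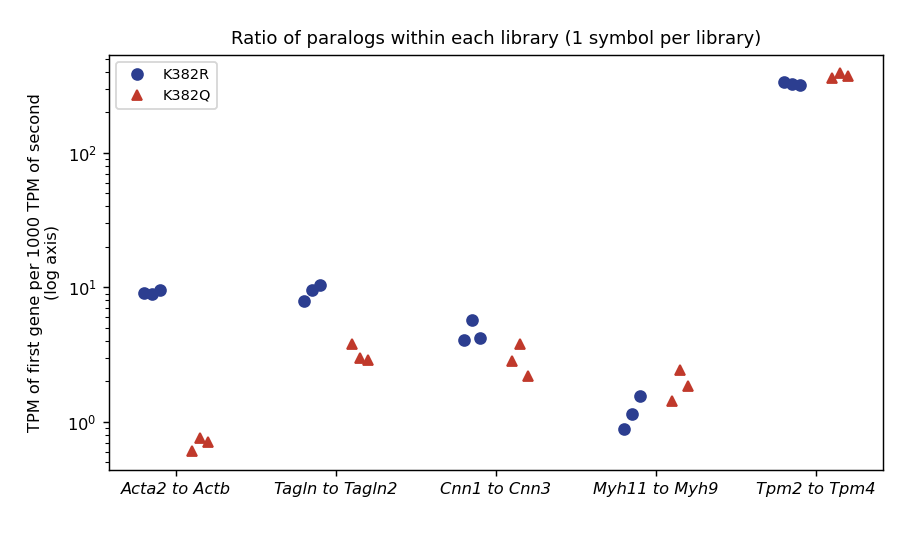
TPM of a smooth muscle member per 1000 TPM of its widely expressed paralog in each library (log axis), for 3 K382R libraries (circles) and 3 K382Q libraries (triangles). The ratio is lower in K382Q without overlap for *Acta2* to *Actb*, *Tagln* to *Tagln2* and *Cnn1* to *Cnn3*, overlaps for *Myh11* to *Myh9*, and is higher in K382Q for *Tpm2* to *Tpm4*.

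All 4 YAP targets were lower in K382Q, 3 of them as DEGs. *Ccn2* (ENSMUSG00000019997.12, chromosome 10, 24471340 to 24474581), which encodes the secreted matrix protein CTGF and is also induced by TGF-β, was at 6.30, 7.23 and 7.06 TPM in K382Q and at 43.4, 41.8 and 47.8 TPM in K382R. Each K382R library was thus more than 5-fold above each K382Q library. The log2 fold change was -2.61 (SE 0.07, adjusted p 4.28e-07 by limma), at a read depth per base of 12.8 to 18.4 in K382Q and 101 to 112 in K382R. Its paralog *Ccn1* (ENSMUSG00000028195.5, chromosome 3, 145352731 to 145355736), also called CYR61, was at 124, 115 and 116 TPM in K382Q and at 311, 309 and 331 TPM in K382R. It was the most abundant YAP target in both groups, and its libraries did not overlap (log2 fold change -1.42, SE 0.04, adjusted p 4.55e-07 by limma). Exons of *Ccn2* share 1164 bases with the antisense gene *Gm15270* and those of *Ccn1* 468 bases with *Gm17501*, whose levels were at most 10.5 TPM (means).

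*Ankrd1* (ENSMUSG00000024803.10, chromosome 19, 36089361 to 36097499), a nuclear ankyrin repeat protein induced by tension, was at 0.551, 0.801 and 0.959 TPM in K382Q and at 2.64, 3.02 and 2.75 TPM in K382R. The levels were low but did not overlap, with a log2 fold change of -1.39 (SE 0.16, adjusted p 0.0003 by limma). *Amotl2*, an angiomotin-like protein that in turn binds YAP and restrains it, was at 88.3, 90.2 and 90.5 TPM in K382Q and at 138, 130 and 134 TPM in K382R. It moved least of the 4 (log2 fold change -0.58, SE 0.03, adjusted p 7.42e-06). The median of the 4 was -1.40 and under median-ratio scaling -1.27, with all 4 still called lower. The medians over all genes tested were -0.14 and 0.00.

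The regulators tested were called lower, by less than 2-fold, apart from *Tead4*. *Srf* (ENSMUSG00000015605.7, chromosome 17, 46859255 to 46867101) was at 28.5, 30.6 and 25.6 TPM in K382Q and at 44.2, 42.4 and 44.1 TPM in K382R. Its groups were clearly apart, with a log2 fold change of -0.62 (SE 0.07, adjusted p 0.000172 by limma) and of -0.47 under median-ratio scaling. *Srf* is itself a target of SRF, and its window, shown above, held a pair of CArG boxes. *Mrtfa* was at 22.5, 24.4 and 25.2 TPM in K382Q and at 29.5, 29.0 and 30.2 TPM in K382R (log2 fold change -0.29, SE 0.05, adjusted p 0.0026 by limma). *Mrtfb* was at 8.28, 7.21 and 6.89 TPM in K382Q and at 9.42, 9.80 and 8.40 TPM in K382R (log2 fold change -0.29, SE 0.09, adjusted p 0.0375). *Mrtfb* came close to overlap, and its call was lost without K382Q replicate 2 (adjusted p 0.0988), K382Q replicate 3 (0.114), K382R replicate 1 (0.101) or K382R replicate 2 (0.118), within a range over alternatives of 0.018 to 0.261. *Mrtfa* was not called under median-ratio scaling (adjusted p 0.0778, where alternatives ranged from 0.00233 to 0.0973). *Myocd* was listed at 0 in every K382Q library and at 0.0139, 0 and 0 TPM in K382R.

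The YAP and TAZ coactivators moved together. *Yap1* was at 57.9, 58.5 and 55.5 TPM in K382Q and at 70.8, 73.6 and 76.0 TPM in K382R (log2 fold change -0.36, SE 0.04, adjusted p 0.000245 by limma). *Wwtr1*, the gene of TAZ, was at 106, 97.4 and 100.3 TPM in K382Q and at 130, 131 and 131 TPM in K382R (log2 fold change -0.37, SE 0.04, adjusted p 0.000131). Neither overlapped between groups, and both calls held under median-ratio scaling at -0.20 and -0.22.

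The TEAD factors, which carry YAP and TAZ on DNA, did not all move the same way. *Tead1*, the most abundant, was at 22.3 to 35.8 TPM in K382Q, with K382Q replicate 2 the highest, and at 42.5 to 43.8 TPM in K382R (log2 fold change -0.62, SE 0.15, adjusted p 0.00897 by limma). *Tead3* was at 7.65 to 8.30 TPM in K382Q and 9.17 to 12.1 TPM in K382R (log2 fold change -0.41, SE 0.11, adjusted p 0.0136). *Tead2* was at 13.2 to 16.2 TPM in K382Q and 16.4 to 17.5 TPM in K382R (log2 fold change -0.23, SE 0.08, adjusted p 0.0426). The groups of *Tead2* nearly met, and its call was lost without K382Q replicate 1 (adjusted p 0.114), K382Q replicate 3 (0.113), K382R replicate 1 (0.106), K382R replicate 2 (0.114) or K382R replicate 3 (0.0617), within a range over alternatives of 0.00788 to 0.582. The call of *Tead3* was lost under median-ratio scaling (adjusted p 0.0804, where alternatives ranged from 0.0026 to 0.0804).

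*Tead4* (ENSMUSG00000030353.16, chromosome 6, 128201251 to 128277786) was the single regulator that was higher in K382Q. It was at 3.66, 2.70 and 3.52 TPM in K382Q and at 1.06, 0.947 and 1.11 TPM in K382R. Every K382Q library stood more than 2-fold above every K382R library, and the log2 fold change was 1.29 (SE 0.15, adjusted p 0.000253 by limma) and 1.41 under median-ratio scaling. The order of the TEAD genes by level was *Tead1*, *Tead2*, *Tead3* and *Tead4* in both groups. Of the 9 regulators tested, 8 were called lower and 1 higher, with a median log2 fold change of -0.36. Under median-ratio scaling 4 were lower (*Srf*, *Yap1*, *Wwtr1* and *Tead1*) and 1 was higher, with a median of -0.20.

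Genes of the same pathways outside the 38 were examined as 3 further lists from general knowledge. Over all genes tested 36.9% were called lower and 11.1% higher, with a median log2 fold change of -0.14. Of 26 other SRF targets 23 were tested, with 19 called lower and 1 higher, and a median log2 fold change of -0.43. Filamin-interacting *Filip1l* (7.77 ± 1.97 TPM in K382Q and 20.3 ± 2.15 TPM in K382R, mean ± SD, n = 3 each), muscle filamin *Flnc* (12.3 ± 0.119 and 27.9 ± 0.469 TPM) and the immediate early gene *Egr1* (11.6 ± 1.34 and 25.3 ± 0.478 TPM) had log2 fold changes of -1.35, -1.15 and -1.10. *Smtn*, a smoothelin of contractile cells, was called higher at 0.67, and the 3 not called were *Fhl1* (0.00), *Csrp2* (-0.11) and *Fosb* (-0.41). Of 18 other YAP targets, all tested, 14 were called lower and 1 higher, with a median of -0.67. One of the 14, *Tgfb2*, passed the filter through K382R alone, and without it 13 of 17 were lower, with a median of -0.61. *Ajuba*, a LIM protein that binds the Hippo kinase LATS, *Gadd45b*, a stress-response gene, and *Crim1*, a membrane protein that binds BMPs, had log2 fold changes of -1.14, -1.14 and -1.01. The one called higher was *Igfbp3*, a binding protein of insulin-like growth factors, at 0.86, and the 3 not called were *F3* (0.05), *Nt5e* (0.17) and *Dock5* (0.17).

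The upstream list stood nearer to the background of 36.9% lower and 11.1% higher, with a median of -0.14. Of 16 Hippo kinases and TEAD cofactors 14 were tested, with 7 called lower and 1 higher, a median of -0.12, and 4 lower and 4 higher under median-ratio scaling. *Vgll3*, a TEAD cofactor, was at -0.84, *Wwc2*, which activates LATS, at -0.68, and *Mob1a*, a cofactor of LATS, at -0.33. The other SRF targets under median-ratio scaling were 15 lower and 2 higher, and the other YAP targets 13 lower and 2 higher. That scaling gave 20.4% lower and 19.9% higher over all genes tested.

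**Figure D4:**
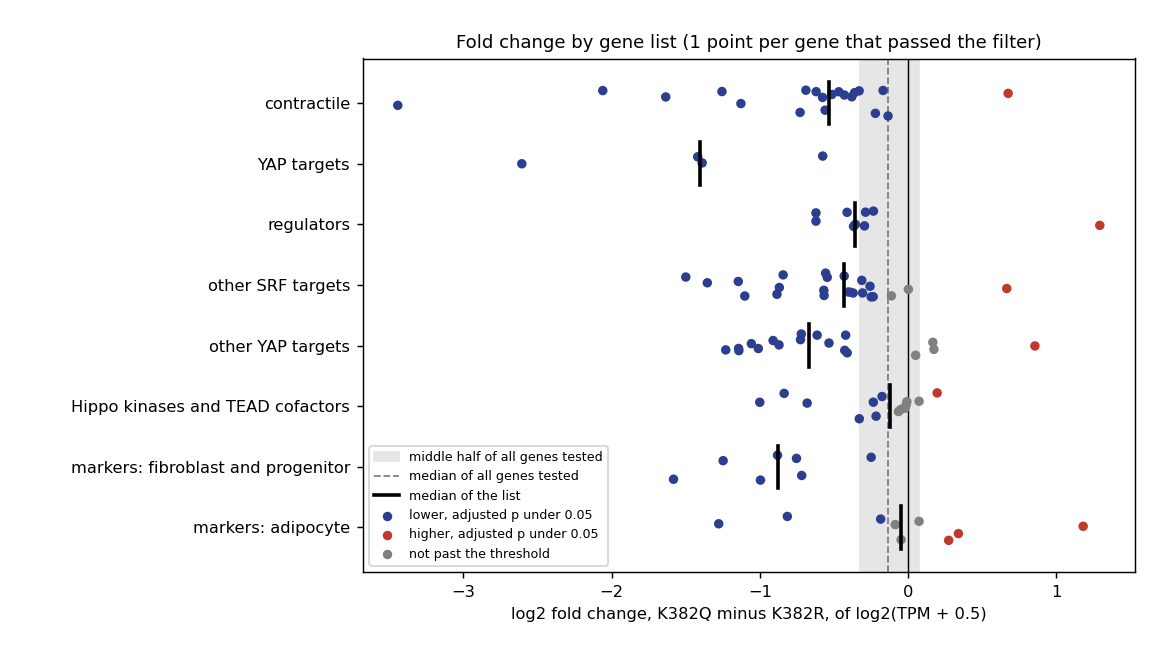
Log2 fold change (K382Q minus K382R, of log2(TPM + 0.5)) of each gene that passed the filter in the 3 classes of members, the 3 further pathway lists and the fibroblast and adipocyte markers, with a black bar at the median of each list. Blue points were called lower, red points higher and grey points not called, and the grey band spans the 25th to 75th percentile of all genes tested, -0.32 to 0.08. The medians of the YAP targets (-1.40) and of the fibroblast and progenitor markers (-0.88) lie farthest to the left, and that of the Hippo kinases and TEAD cofactors (-0.12) lies close to the median of all genes (-0.14).

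Reads that belong to other genes touch several members. Exons of 22 of the 38 overlapped those of another gene in GENCODE, and 8 of these overlapped a protein-coding gene. Beyond the cases given above, *Tagln* shared 123 bases with *Pcsk7*, a gene at 22.4 TPM in K382Q and 26.9 TPM in K382R (means). *Myl9* shared 169 bases with *5730471H19Rik*, which was at 1.20 and 2.32 TPM (log2 fold change -0.72). *Vcl* shared 2104 bases with *Ap3m1* and *Mrtfa* 564 bases with *Sgsm3*, whose log2 fold changes were -0.19 and -0.40.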

How the data were processed

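The sequencing kit was NEBNext Ultra, which does not mark strand, and reads were paired. HISAT2 (alignment to GRCm39) and StringTie (gene quantification) were run by the authors, whose own test of counts used DESeq2. The annotation release is not given in the sources used here. They deposited 1 gene abundance table per library. The deposited coverage says how many reads on average lie over a base of the gene, and is not normalized. The deposited FPKM is normalized to the size of the library, and the deposited TPM gives all libraries 1 common total, which makes it a share and not an absolute amount. From gene to gene the deposited coverage is not in proportion to TPM.

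Repeated entries of a gene ID (3 to 5 per table) were summed. Depth was estimated as the most common ratio of coverage to FPKM, which held for 16.3% to 16.8% of genes per library, so it is approximate. Counts were not analysed here, so no counting interval is given, and precision is that of 3 replicates. R 4.3.3 with limma 3.58.1 compared the mutants by log2(TPM + 0.5), letting the variance follow an intensity trend, over the 15426 genes that passed the filter, with Benjamini-Hochberg adjustment over all of them; the pseudocount shrinks the fold changes of low genes. The script was tested on simulated data. Tables and plots were made in Python 3.11.15 (numpy 2.4.6, pandas 2.3.3, matplotlib 3.10.9).

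Members, gene lists and tests were chosen with earlier results of these data known. Every member is accounted for, and values per library are given for DEGs, the actins, the YAP targets and *Srf*, *Mrtfa*, *Mrtfb*, *Yap1* and *Wwtr1*. From each further list the 3 largest changes among called genes with a mean TPM of at least 5 are named, and a few more were named after their values were seen. Results for 1 further list are not reported here. There were 17 alternatives, in the unit, pseudocount, filter, scaling, variance model, replicate block and the libraries used. Coordinates are those of the deposited tables in GRCm39; exon overlaps came from GENCODE and promoter windows from RefSeq.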

Additional observations from a re-analysis of the deposited data

How the results depend on the processing

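Of the 33 members tested, 26 kept their call and direction under all 17 alternatives. The exceptions were *Tagln2*, *Myl6*, *Tpm2*, *Mrtfa*, *Mrtfb*, *Tead2* and *Tead3*, and the direction changed only for *Myl6*, to 0.017 on the log2 scale under median-ratio scaling. The count of regulators called lower was 4 with median-ratio scaling and 4 with quantile normalization, and it ranged from 6 to 8 under the other alternatives. It was 6 with FPKM, with no filter and without mitochondrially encoded genes. It was also 6 without K382Q replicate 3, K382R replicate 1 or K382R replicate 2. The count of other SRF targets called higher was 2 with median-ratio scaling and 2 with quantile normalization. The count of other YAP targets called higher was 2 with FPKM, with median-ratio scaling, with quantile normalization, without the intensity trend and without mitochondrially encoded genes, and 0 with no filter. With a fold change over 1.5 in place of 2, 13 members were lower and 2 higher. With FPKM, *Tagln* (-0.85) and *Ankrd1* (-0.96) were called lower by less than 2-fold. The contractile median was -0.45 with FPKM, -0.38 with median-ratio scaling, -0.46 with no filter, where more genes enter, and -0.47 with quantile normalization. The cause of these shifts was not tested beyond the construction of each alternative.

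Replicates with the same number were not shown to be paired (correlations of their deviations of 0.02, 0.08 and 0.05 over 10644 genes), and K382Q replicate 1 correlated best with K382R replicate 3 (0.03). With a replicate block, 19 contractile members were called lower, as without it, no call of a member changed, and over all genes 5387 were lower and 1600 higher, against 5698 and 1717. Levels below about 1 TPM, such as those of *Acta2*, *Tagln*, *Myl9* and *Ankrd1* in K382Q, rest on few reads and set the precision of their fold changes.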
